A study of Mus musculus with 12 samples.

Results

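The mature microRNAs described here carry the mouse numbers miR-6900 to miR-7099. This stretch of the registry is made up largely of miRNAs annotated at the ends of introns, short and long. The deposited count table held 391 rows in that range among 1929 rows in all, and 115 of the 391 reached a mean of at least 5 raw counts over the 12 libraries. These 115 rows, 45 of them 5p arms and 70 of them 3p arms, are the members. The members were chosen by their mean raw count over both groups, so levels are given as a description. The rule does not use the contrast between groups, but the number range was picked with earlier results of these data known. At the edge of the rule, the lowest members included miR-6948-3p, miR-6978-5p and miR-6995-3p, each with a mean of 5 counts, and the highest rows left out were miR-7010-3p, miR-7032-5p and miR-7046-5p, each with a mean of 4.92 counts.

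The libraries came from livers of C57BL/6 mice with hepatic fibrosis produced by intraperitoneal carbon tetrachloride (CCl4), a solvent that injures hepatocytes. The comparison was between 6 mice given double distilled water by the intragastric route (the libraries titled Control, called water here) and 6 mice given PZH by the same route, the abbreviation of Pien Tze Huang, a formula of traditional medicine, with 1 library per liver. Every mouse of both groups had received CCl4, and no uninjured mouse was among the samples, so the values say nothing about injury itself. The study asked which miRNAs differ when fibrotic mice are given PZH. The labels give no sex, age or dose and name no litters, cages or batches.

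A conventional miRNA is cut from a long primary transcript by the Microprocessor, a complex of the nuclease Drosha and its partner DGCR8, and the resulting hairpin is then cut by Dicer. A mirtron takes another route: the spliceosome cuts out a short intron, the lariat is opened, and the folded intron itself serves as the hairpin for Dicer. In a tailed mirtron only 1 end of the hairpin is set by splicing, and the extra intron sequence at the other end has to be trimmed away. Because a mammalian intron ends in a run of pyrimidines followed by AG, the 3p arm of a hairpin that reaches the splice acceptor ends in AG and is rich in C and U, and the 5p arm that pairs with it is rich in purines.

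Sequences of called members and of members with the highest levels, where matched by name, are shown so that the arms can be compared with these features. miR-6927-3p is printed further on with the member that shares its seed, and miR-6952-3p and miR-6972-3p were not matched. The sequences are written 5′ to 3′, with the seed (bases 2 to 8, the part that pairs with target mRNAs) in capitals, from RefSeq on GRCm38.p6.
miR-6937-5p: uAGCUGUAagggcugggucugugu
miR-7058-3p: cUCGUUCCuuccuuucuuccag
miR-7025-5p: cGUGAGCUgaagcugguggcuccc
miR-7087-3p: uGCUGGCUcucuccccugccag
miR-7056-3p: cCUCACCUgucucccaccacag
miR-7021-3p: uCUCUGUGcuucugcuccuuag
miR-7009-5p: uUGGGGUCaggggaccagagcu
miR-7093-3p: uUUCCAUCugucauccugcag
All 5 of these 3p arms end in ag. The 5p arms are less uniform: A and G make up 63.6% of miR-7009-5p and 54.2% of miR-6937-5p, and the share in miR-7025-5p was no higher than the 50.4% of other fitted 5p miRNAs. Sequences were matched by name for 99 of the 115 members. Positions are given for the 83 hairpins that hold 95 of these 99, and not for miR-6948-3p, miR-7015-3p and both arms of miR-7070.

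The full hairpins of miR-7056, miR-7009, miR-6937 and miR-7058 follow, because the first 3 carry the arms on which the results below turn and the last fills a whole intron. Capitals mark the mature arms that are members, and the last base of each hairpin is the last base of the intron.
Mir7056: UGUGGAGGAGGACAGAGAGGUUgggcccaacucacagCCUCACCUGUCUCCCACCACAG
Mir7009: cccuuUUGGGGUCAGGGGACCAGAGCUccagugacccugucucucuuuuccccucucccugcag
Mir6937: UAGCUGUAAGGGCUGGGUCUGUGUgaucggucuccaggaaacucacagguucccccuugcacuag
Mir7058: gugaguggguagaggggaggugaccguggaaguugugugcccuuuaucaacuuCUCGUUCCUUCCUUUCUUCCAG
Mir7056 lies at chr7:47083166-47083224 on the minus strand of GRCm38, at the 3′ end of a 2875-base intron of Ptpn5. That gene encodes a tyrosine phosphatase best known in neurons. Mir7009 lies at chr3:36475461-36475524 on the minus strand, at the 3′ end of a 112-base intron of Anxa5, which encodes the phosphatidylserine-binding protein annexin A5. Mir6937 lies at chr12:28679325-28679389 on the plus strand, at the 3′ end of a 1492-base intron of Adi1, an enzyme of the methionine salvage pathway. Mir7058 lies at chr7:126367971-126368045 on the minus strand and spans all 75 bases of an intron of Lat, the adaptor of the T cell receptor. The GENCODE M21 annotation also has a retained-intron transcript of Lat over it.

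The position at an intron's 3′ end was shared by most of the members. Of these 83 hairpins, 78 (94.0%) ended within 2 bases of an annotated splice acceptor of a coding gene on the same strand, 77 of them exactly at it. The same was true of 15 of 441 other hairpins with a fitted miRNA (3.40%). Only 4 member hairpins also began within 2 bases of the donor, as a full mirtron does: miR-7058 in Lat, miR-7068 in Cherp, miR-6923 in Myh3 and miR-6958 in Dennd6b. Another 74 (89.2%) met the acceptor end alone, with a median of 427.5 bases of intron before the hairpin and 50 bases or fewer in 13 of them. The introns holding member hairpins had a median length of 480 bases, against 4961 bases for the other intronic hairpins.

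The exceptions were few. Mir6927, in an intron of Mllt6, met the donor end alone, and Mir7036b, in Add1, met neither end. Mir6901, Mir6914 and Mir7025 lay in no coding intron of the annotation, and miR-7025-5p matched an exon of Pdgfra, the gene for a receptor of platelet-derived growth factor. Over all 99 sequences, 16 occurred letter for letter in an annotated transcript. For 2 of them (miR-7025-5p in Pdgfra and miR-6912-5p in Scamp4) the gene was not one taken as host. The rest matched transcripts of the host gene itself. Protein-coding transcripts were among these for miR-7045-5p (Chd4), miR-7036b-3p (Add1), miR-6945-3p (Pdlim7) and miR-7084-3p (Elof1). An annotated exon on the same strand, retained introns included, overlapped 20 of the 83 member hairpins and 115 of the 441 others. Hosts of other members included C3 (complement component 3; miR-6978), Srebf1 (a transcription factor of lipid synthesis; miR-6921 and miR-6922), Syvn1 (a ubiquitin ligase of the endoplasmic reticulum; miR-6988), Notch1 (miR-6996), Jag2 (a Notch ligand; miR-6941) and Sidt2 (a lysosomal membrane protein; miR-7087). Host mRNAs were not measured.

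**Figure D1:**
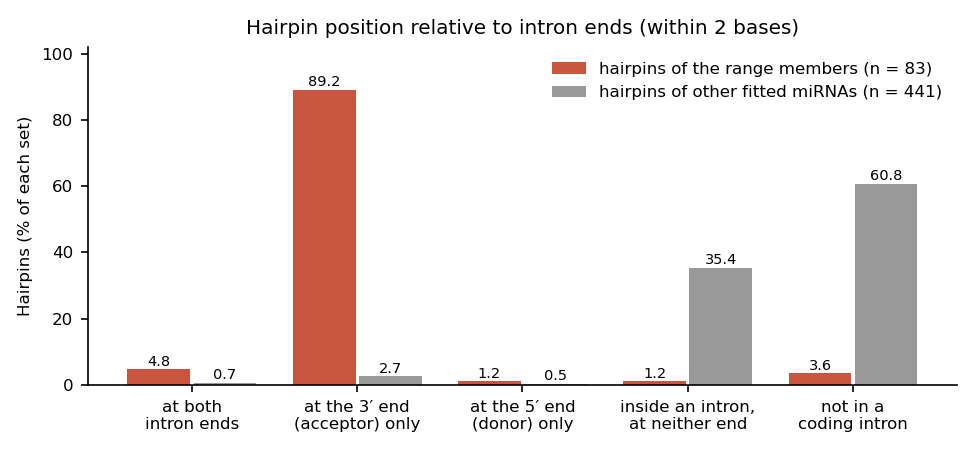
Bars give the percentage of hairpins (vertical axis) in each class of position relative to the ends of a coding intron, within 2 bases, for the 83 member hairpins and for 441 hairpins of other fitted miRNAs. Of the member hairpins 89.2% meet the 3′ end of an intron only, whereas 60.8% of the other hairpins lie in no coding intron and 35.4% lie inside an intron at neither end.

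The 3p members carried the letters of a splice acceptor. Of 60 with a sequence, 51 (85.0%) ended in AG and 43 (71.7%) in CAG, a subset of the first. Among 294 other fitted 3p miRNAs the shares were 8.84% and 4.42%, and among all 709 3p sequences of the reference table they were 27.6% and 21.02%. C and U made up 72.7% of their bases, against 54.6% in the other fitted 3p miRNAs. The 39 5p members with a sequence were 45.9% G, against 28.2% in 256 other fitted 5p miRNAs. The run GGGG occurred on the miRNA strand in 16 of the 39 (41.0%), and in 8.20% of the other fitted 5p miRNAs and 17.5% of all 697 5p sequences. GGAGG, which can overlap it, occurred in 11 (28.2%), against 3.91% and 8.46%.

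Seeds were seldom shared among the members. The 99 sequences held 96 distinct seeds, and 28 members shared a seed with any other mature miRNA of the table of sequences. The 3 seeds that occurred in more than 1 member each joined a single pair, shown here with the seed in capitals.
miR-6927-3p: cCUGAGCUggcuccccugcag
miR-6945-3p: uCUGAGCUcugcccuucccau
miR-7010-5p: cGGAAAGGauugggaaacuuga
miR-7027-5p: uGGAAAGGaagaaacagcagagc
miR-6935-3p: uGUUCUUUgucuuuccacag
miR-7092-3p: uGUUCUUUguuuuguuugccuuag
The first 2 pairs differ in what follows the seed, and the last pair keeps a stretch of U and a closing ag in both.

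The libraries held between 4961913 and 20211784 counts, and the members together took 0.0515% to 0.101% of them. Levels are given as CPM, counts per 1000000 counts of the library after TMM scaling. Water replicates 1 and 2 were the deepest libraries and water replicate 6 the shallowest, and mean depth was 11351521 ± 5387910 (SD, n = 6) counts in water and 8655135 ± 1524286 (SD, n = 6) in PZH. The 4 hepatocyte miRNAs checked (miR-122-5p, miR-122-3p, miR-192-5p and miR-802-5p) summed to between 141425 and 190889 CPM in every library. In the whole table no cell held a count of 1, while 6775 of 23148 cells were at 0 and 3049 at 2, so a count listed as 0 may stand for 0 or for 1 read. Among the 1380 cells of the members, 133 were at 0, 45 in water and 88 in PZH libraries.

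Most members were scarce. Their median level was 0.800 CPM, 78 of the 115 lay under 1 CPM and 34 between 1 and 10 CPM. Only miR-6937-5p, miR-7058-3p and miR-7025-5p exceeded 10 CPM. A count above 0 was found in all 12 libraries for 47 members, in 10 or 11 libraries for 49, and in fewer for 19. The least often detected (miR-6939-5p, miR-6990-3p, miR-7046-3p, miR-7084-3p and miR-7085-5p) were seen in 8 libraries.

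miR-6937-5p stood far above the rest. Its level ran from 415 to 613 CPM in the water libraries (median 518) and from 368 to 767 CPM in the PZH libraries (median 474). Means were 513 ± 91.1 and 507 ± 151 (SD, n = 6 each), with a log2 fold change (PZH against water) of -0.02 ± 0.17 (SE) and an adjusted p of 0.972 in edgeR's quasi-likelihood test. The groups overlapped throughout. This single arm held 70.0% ± 4.85 of the member counts in water and 71.6% ± 8.21 in PZH libraries (SD, n = 6 each). Its partner miR-6937-3p had 39 counts over all 12 libraries, against 59023 for the 5p arm.

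miR-7058-3p, the mirtron arm from Lat, was next. It ran from 26.2 to 57.8 CPM in water (median 46.3) and from 25.5 to 118 CPM in PZH (median 35.3), and PZH replicate 2 held the high value, with 51.7 CPM the next highest of its group. The fold change was 0.14 ± 0.31 (SE) on the log2 scale (adjusted p = 0.854).

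miR-7025-5p, whose hairpin overlaps Pdgfra, ran from 12.8 to 32.6 CPM in water (median 25.7) and from 14.9 to 46.0 CPM in PZH (median 28.2), with a log2 fold change of 0.35 ± 0.25 (SE; adjusted p = 0.430). The ranges overlapped for each of these 3 arms. Among the others of the 10 highest, miR-7087-3p (6.98 ± 4.09 and 9.58 ± 3.56 CPM), miR-7093-3p (3.21 ± 0.930 and 3.50 ± 0.898 CPM) and miR-6972-3p (3.57 ± 1.33 and 2.90 ± 1.32 CPM; SD, n = 6, water before PZH) had adjusted p between 0.474 and 0.881. miR-6927-3p was at 9.77 ± 2.45 CPM in water and 6.12 ± 3.20 CPM in PZH, a log2 fold change of -0.69 ± 0.28 (SE; adjusted p = 0.115). Its PZH replicate 1, at 12.2 CPM, lay among the water values while 4 of the 6 PZH libraries lay below all of them, and without that library the fold change was -0.99 and passed the test (adjusted p = 0.00947).

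**Figure D2:**
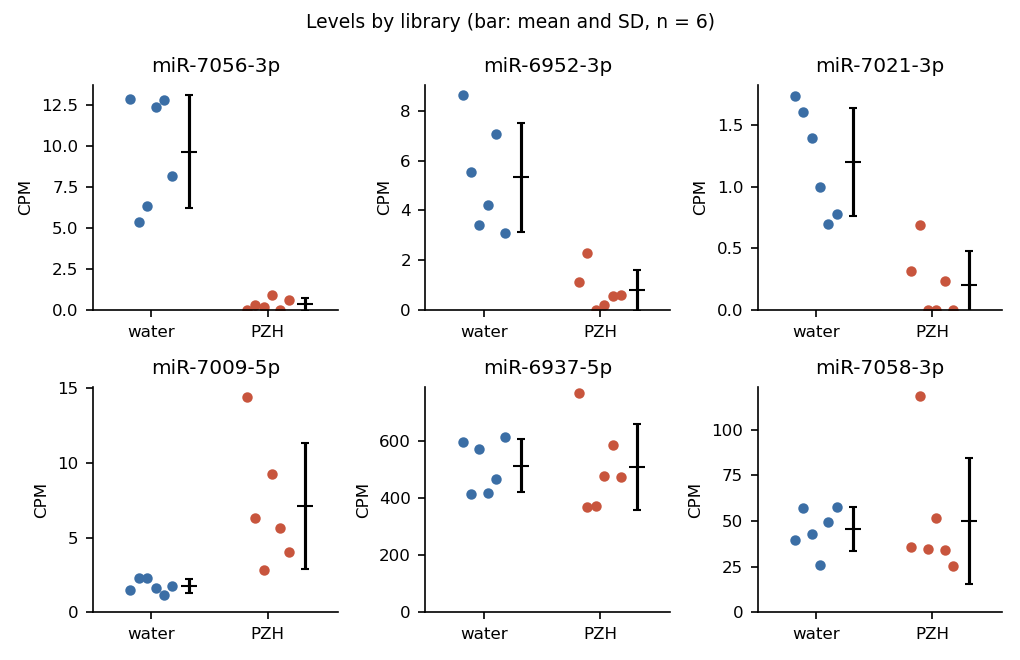
Each point is 1 library's CPM (vertical axis, linear from 0) for 6 members in the water and PZH groups, and the bars give the mean and SD of 6 libraries, cut at 0 where the SD reaches below it. miR-7056-3p, miR-6952-3p and miR-7021-3p lie lower in every PZH library than in any water library and miR-7009-5p higher, whereas miR-6937-5p and miR-7058-3p overlap. For miR-7021-3p the gap is narrow, from 0.687 CPM in PZH to 0.699 CPM in water.

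Of the 115 members, 4 differed between the groups in edgeR's quasi-likelihood test with Benjamini-Hochberg adjustment over all 883 rows fitted (adjusted p under 0.05). The 3p arms miR-7056-3p, miR-6952-3p and miR-7021-3p fell in PZH livers and the 5p arm miR-7009-5p rose. Over all fitted rows 13.4% were called, 7.13% higher and 6.23% lower, and of the members 3.48%. Calls depended on level: between 5 and 10 mean counts 1.35% of members and 2.37% of other rows were called, and between 20 and 100 counts 21.4% and 21.5%. These 4 were also the members whose water and PZH values did not overlap as CPM, by a narrow margin for miR-7021-3p. That state was found in 7.02% of all fitted rows (4.08% higher, 2.94% lower).

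miR-7056-3p, the Ptpn5 intron arm, showed the largest fold change of the members called. Water replicates 1 to 6 held 193, 104, 50, 112, 147 and 42 counts, and PZH replicates 1 to 6 held 0, 3, 2, 9, 0 and 5. The highest PZH count, 9, was below the lowest water count, 42, which came from the shallowest library. The level was 9.67 ± 3.45 CPM in water and 0.348 ± 0.370 CPM in PZH (SD, n = 6 each), a log2 fold change of -4.69 ± 0.48 (SE), or 25.8-fold lower (adjusted p = 6.14e-06). It was called under each of the 26 alternative settings tried, with fold changes from -5.29 to -4.44.

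miR-6952-3p held 129, 107, 27, 38, 81 and 16 counts in water replicates 1 to 6 and 7, 20, 0, 2, 5 and 5 in PZH replicates 1 to 6. As CPM, every PZH library lay below every water library, 5.33 ± 2.18 against 0.803 ± 0.824 (SD, n = 6 each). The log2 fold change was -2.78 ± 0.53 (SE), 6.88-fold lower, with an adjusted p of 0.00179.

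miR-7021-3p comes from a 6024-base intron of Prdm2, a gene of the PR-domain family of chromatin proteins. It held 26, 31, 11, 9, 8 and 4 counts in water and 2, 6, 0, 0, 2 and 0 in PZH. These raw counts overlapped, with 4 in water replicate 6 and 6 in PZH replicate 2. As CPM the groups were barely apart, with a PZH maximum of 0.687 and a water minimum of 0.699. Levels were 1.20 ± 0.438 and 0.207 ± 0.273 CPM (SD, n = 6 each), and the log2 fold change was -2.55 ± 0.72 (SE; adjusted p = 0.0260). This call rests on few counts and was lost with every library thinned to the smallest total (adjusted p = 0.0525), with depth as a covariate (0.0566), without water replicate 1 (0.0625) and without both of the deepest libraries (0.133). The direction stayed negative in each.

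miR-7009-5p, the Anxa5 intron arm, held 22, 44, 18, 15, 13 and 9 counts in water and 90, 55, 30, 89, 48 and 33 in PZH. Its CPM ran from 1.14 to 2.28 in water and from 2.86 to 14.4 in PZH, and the spread in PZH was wide, with replicates 1 and 4 highest. Means were 1.76 ± 0.452 and 7.09 ± 4.20 CPM (SD, n = 6 each), a log2 fold change of 1.99 ± 0.35 (SE), 3.96-fold higher (adjusted p = 0.00105). Both miR-7009-5p and miR-6952-3p were called under all 26 alternatives.

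The other 111 members were not called, with log2 fold changes from -2.11 to 1.31. At an unadjusted p under 0.05 the members included 2 higher and 14 lower, against 13.3% of all fitted rows in each direction. Of the 12 that were not called after adjustment, 11 were lower, by 0.66 to 2.11 on the log2 scale, with adjusted p between 0.0559 and 0.185. miR-7082-5p (1.33 ± 0.473 CPM in water, 0.415 ± 0.312 in PZH) and miR-7041-3p (0.917 ± 0.391 and 0.208 ± 0.252 CPM; SD, n = 6 each), named here after their values were seen, came nearest among the lower ones. Their adjusted p was 0.0559 and 0.0696 in edgeR and 0.0149 and 0.0183 in DESeq2, which called 5 lower and 1 higher member and 17.4% of all fitted rows. limma-voom called 4 lower and 1 higher member, and 14% of all fitted rows. With edgeR's default filter, which kept 607 rows and 34 of the members, 2 lower and 1 higher member were called, and 21.3% of all rows. The member nearest the threshold on the higher side was miR-6941-3p, at 0.585 ± 0.445 and 1.39 ± 0.831 CPM (log2 fold change 1.31 ± 0.56 SE, adjusted p = 0.139).

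**Figure D3:**
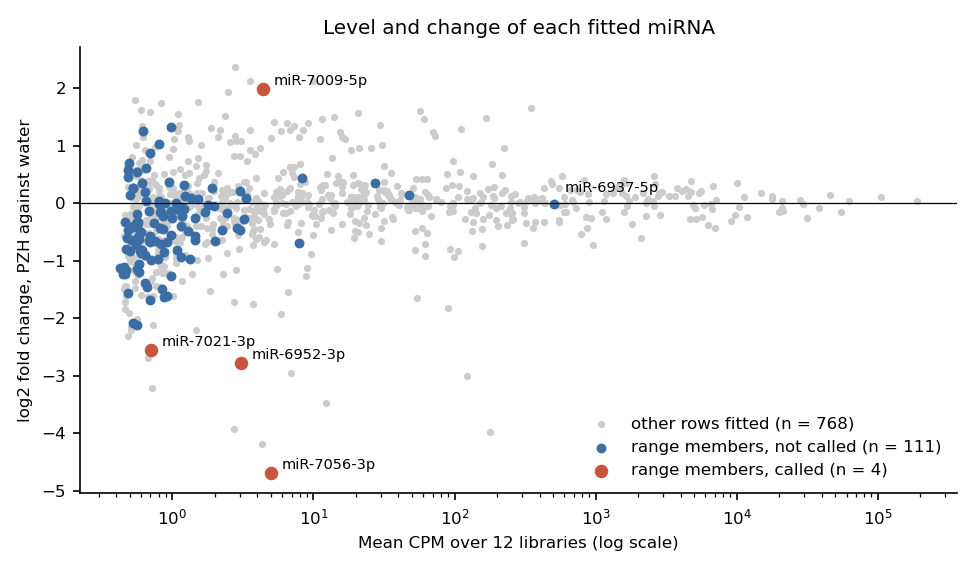
Each point is 1 fitted row, with its mean CPM over the 12 libraries (horizontal, log scale) and its log2 fold change, PZH against water (vertical). Most of the 115 members lie under 1 CPM and below 0 on the vertical axis, the 4 called members are labelled, and miR-6937-5p lies near 510 CPM with a change of -0.02.

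Across the members the fold changes leaned to the negative side. Their median was -0.43 on the log2 scale, with 86 negative and 29 positive, whereas all 883 fitted rows had a median of -0.03, with 471 negative. Part of this lean was shared by other rows of the same low level. Between 5 and 10 mean counts, the 74 members had a median of -0.58 (77.0% negative) and the 169 other rows -0.29 (62.7% negative). Between 10 and 20 counts the medians were -0.19 for 24 members and 0.00 for 96 other rows, and between 20 and 100 counts they were -0.36 for 14 members and -0.02 for 163 other rows. The rule selects on raw counts, to which the deep water libraries contribute most, so a row can reach the mean of 5 through them. The median was -0.28 with depth as a covariate and -0.32 without the 2 deepest libraries. For the 107 rows of the number range with a mean of at least 0.5 CPM, whatever their mean raw count, the median was -0.36. It was -0.20 both for the 34 members that passed edgeR's default filter and for the 17 with a mean of 20 counts. Over all 26 alternatives it ran from -0.58, with limma-voom, to -0.20. The part of depth and of cells at 0 in the remaining lean was not tested. By arm, the median was -0.40 for the 45 5p members and -0.43 for the 70 3p members.

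Precision limits what could be seen for single members. The median SE of the log2 fold change was 0.67 for the 74 members with 5 to 10 mean counts and 0.29 for the 17 with 20 or more.

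Arm use was described first over the whole range. The 3p arm was kept more often by the rule, 70 of 196 3p rows (35.7%) against 45 of 195 5p rows (23.1%). Of 98 member hairpins, 53 had only the 3p arm among the members, 28 only the 5p arm and 17 both. In the 194 hairpins with both arms in the table, 113 had more 3p than 5p counts and 81 the reverse. Total counts ran the other way, 71543 for 5p and 20716 for 3p arms, because of miR-6937-5p. Without that hairpin they were 12520 and 20677.

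The most abundant members came almost wholly from 1 arm. Over the 12 libraries miR-7058-5p had 20 counts against 5763 for its 3p arm, miR-7025-3p had 46 against 3214 for the 5p arm, and miR-7087-5p had 29 against 974 for the 3p arm. miR-6927-5p had 50 counts against 945 for miR-6927-3p, and miR-6952-5p had 4 against 437 for miR-6952-3p. In Mir7009, printed above, the 5p arm rose in PZH while miR-7009-3p went from 42 counts over the water libraries to 7 over the PZH libraries. With a mean of 4.08 counts that 3p arm was below the rule and was not tested.

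In the 17 hairpins with both arms among the members, the absolute log2 ratio of 5p to 3p counts over all libraries had a median of 0.80, and 1 of the 17 exceeded 4-fold (miR-7056). The rule limits these ratios, since both arms had to reach a mean of 5 counts and the higher arm had a mean of at most 55.6, and it leaves out uneven hairpins such as miR-6937 and miR-7058. In counts summed over all libraries, the 3p arm led in 11 (miR-6923, miR-6935, miR-6946, miR-6970, miR-6978, miR-6989, miR-7021, miR-7027, miR-7056, miR-7075 and miR-7085). The 5p arm led in 6 (miR-6922, miR-6951, miR-6960, miR-6975, miR-7070 and miR-7083). Some leads were small or differed by group. The totals of miR-6970 were 66 and 65. Over the PZH libraries alone the 5p arm led in miR-6970, miR-7021, miR-7056 and miR-7085, and the 3p arm in miR-6975 and miR-7070. Over the water libraries alone the 3p arm led in miR-6960.

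The arm ratio of miR-7056 turned between the groups. Over 6 water libraries it had 648 3p counts and 64 5p counts, and over 6 PZH libraries 19 and 28. The log2 ratio of 5p to 3p counts, with 1 added to each, ran from -5.43 to -2.32 in water and from -0.32 to 1.58 in PZH, with no overlap. Its mean was -3.66 ± 1.36 in water and 0.77 ± 0.74 in PZH (SD, n = 6 each), a change of 4.43 ± 0.59 (SE; limma adjusted p = 0.00163 over 210 hairpins). The 5p arm alone was at 0.819 ± 0.591 and 0.538 ± 0.325 CPM (log2 fold change -0.66 ± 0.61 SE, adjusted p = 0.565). Over the 210 hairpins 4 (1.9%) were called, and this was the only member among them.

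At an unadjusted p under 0.05 the ratio differed in 5 of the 17 hairpins, against 20.5% of the 210. Beside miR-7056 these were miR-7021 (change 2.17 ± 0.79 SE, adjusted p = 0.146), miR-7085 (2.12 ± 0.83, adjusted p = 0.161), miR-7027 (-1.43 ± 0.49, adjusted p = 0.117) and miR-7075 (-1.01 ± 0.46, adjusted p = 0.234). miR-7021 had 89 3p and 44 5p counts in water against 10 and 36 in PZH, and its 5p arm had a log2 fold change of 0.04 ± 0.56 (SE). Without PZH replicate 1, in which the 3p arm led (2 counts against 0), its ratio change was 2.77 and was called (adjusted p = 0.0368). The remaining 12 hairpins had changes between -1.59 (miR-7070) and 1.16 (miR-6922), with adjusted p between 0.257 and 0.882.

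**Figure D4:**
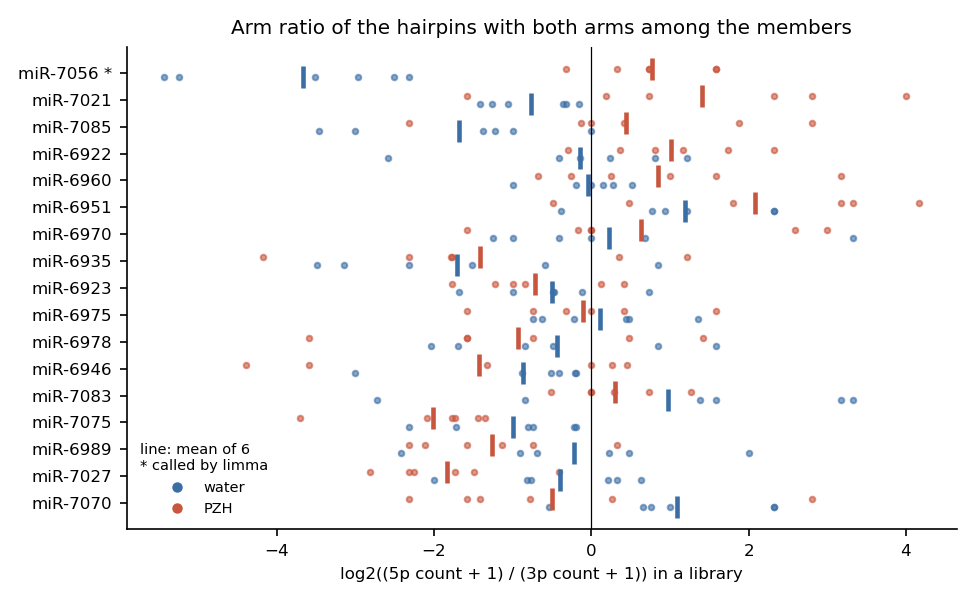
Each point is 1 library's log2 ratio of 5p to 3p counts, with 1 added to each (horizontal), for the 17 hairpins with both arms among the members (vertical), ordered by the change between groups, and short lines mark the mean of 6 libraries. The water and PZH points of miR-7056 lie apart on either side of the gap from -2.32 to -0.32, and the groups overlap in the other 16 hairpins.

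Raw counts of the members followed library depth. The summed count correlated with the library total with a Pearson r of 0.888 and a Spearman rho of 0.629 over 12 libraries. These values are a description without a p-value, because the members were chosen with earlier results known. The total contains the members, at 0.0515% to 0.101% of it. In the water libraries alone r was 0.929 and rho 0.943, and in the PZH libraries, whose totals span less, they were -0.229 and -0.257. Without water replicates 1 and 2, r was 0.554. miR-6937-5p, which holds most of the summed count, had an r of 0.811 over 12 libraries and -0.351 within PZH. The summed counts of the other members had an r of 0.919 over 12 libraries and 0.979 in water. Within PZH their r was 0.202 and rho 0.314. For single members, rho of raw count and depth was positive in 113 of 115, with a median of 0.56. Within the water libraries it was positive in 114, with a median of 0.82, and within the PZH libraries in 72, with a median of 0.24.

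Detection moved with depth as well. Water replicates 1 and 2 had all 115 members above 0, water replicate 6 had 83 and the other 9 libraries had 97 to 113. Means were 107.5 ± 12.3 in water and 100.3 ± 3.20 in PZH (SD, n = 6 each). Over 12 libraries r was 0.731 and rho 0.761, and without water replicates 1 and 2 they were 0.731 and 0.590.

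Scaled to the library, the summed level of the members was 730 ± 98.6 CPM in water and 702 ± 160 CPM in PZH (SD, n = 6 each), with the groups overlapping, and r with depth was -0.270 (rho -0.364). Within PZH libraries r was -0.915 and within water libraries -0.239. miR-6937-5p, which holds most of the summed level, had an r with depth of -0.408 over 12 libraries and -0.839 within PZH. The other members together summed to 217 ± 33.7 CPM in water and 195 ± 54.3 CPM in PZH, and their r with depth was 0.317 over all libraries, 0.662 in water and -0.361 in PZH. For single members, rho of CPM and depth had a median of 0.18, positive in 88 and negative in 26. Within the water libraries the median was 0.31 (86 positive, 28 negative) and within the PZH libraries -0.03 (54 positive, 60 negative).

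**Figure D5:**
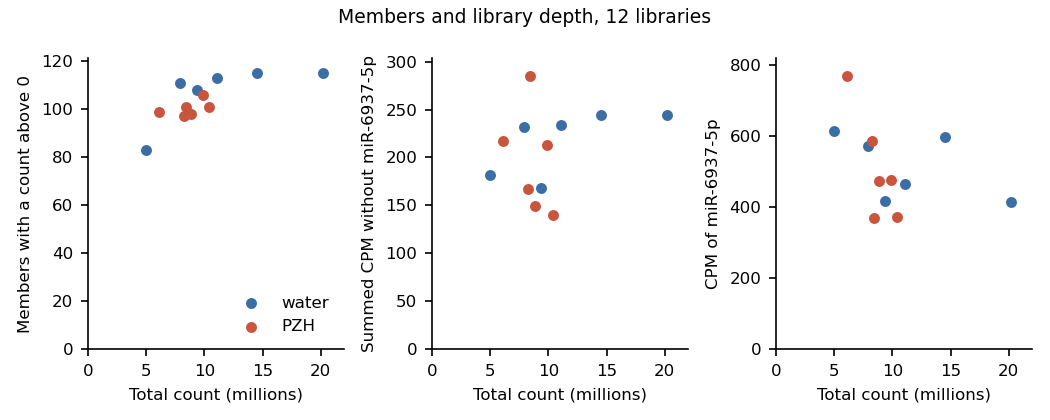
Each point is 1 of the 12 libraries, placed by its total count in units of 1000000 (horizontal), against the number of members with a count above 0, the summed CPM of the members without miR-6937-5p, and the CPM of miR-6937-5p (vertical axes from 0). The shallowest library, water replicate 6, has the fewest members, 83, while the CPM of miR-6937-5p is highest in a shallow library (767, PZH replicate 1).

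Other hairpins known to bypass the Microprocessor were read from the same fit: the mirtrons miR-877, miR-702 and miR-1224, and miR-320 and miR-484, which arise as capped transcripts. In the annotation used here, Mir877 and Mir1224 met both ends of a coding intron, whereas Mir702 lay in no coding intron. Of 9 arms, 6 were fitted and 0 were called by edgeR, DESeq2 or limma-voom, which called 13.4%, 17.4% and 14% of all fitted rows. At an unadjusted p under 0.05 in edgeR there were 3, miR-877-5p, miR-877-3p and miR-484, against 26.5% of all fitted rows. miR-877-5p was at 12.6 ± 2.75 and 17.4 ± 3.04 CPM and miR-877-3p at 4.31 ± 0.498 and 3.09 ± 0.946 CPM (SD, n = 6, water before PZH), with log2 fold changes of 0.47 and -0.49 and adjusted p of 0.0945 and 0.185. miR-484, at 605 ± 58.0 and 710 ± 59.1 CPM, changed by 0.23 (adjusted p = 0.0943). miR-320-3p (0.16, adjusted p = 0.387), miR-1224-5p (-0.71, adjusted p = 0.434) and miR-702-3p (-0.06, adjusted p = 0.977) completed the list, and miR-702-5p, miR-1224-3p and miR-320-5p had means under 5 counts. The arms of miR-877, a mirtron outside the numbered range, thus had fold changes of opposite sign, and neither passed the adjusted test. In a whole liver, fewer cells of a type and less RNA per cell cannot be told apart.

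Marker miRNAs of several cell types were read beside the members. The summed level of the 2 myeloid miRNAs (the miR-223 arms) ran from 809 to 1124 CPM in water and from 526 to 883 in PZH, and that of the 2 endothelial miRNAs (the miR-126a arms) from 12759 to 16687 and from 10688 to 14132. The 3 pancreas miRNAs summed to 3.32 to 27.6 CPM in water and 3.13 to 6.18 in PZH, and the 4 epithelial miRNAs to 859 to 2089 and 850.3 to 1239. In each of these 4 lists 1 miRNA was called by edgeR and was lower in PZH (miR-223-3p, miR-126a-3p, miR-375-3p and miR-200c-3p). So was miR-802-5p among the 4 hepatocyte miRNAs. Of the 3 pancreas miRNAs, only 2 reached the mean of 5 counts and were tested. Over all fitted rows 13.4% were called, and 6.23% were called lower. Among rows other than the members with 100 or more mean counts, 20.9% were called. The summed ranges of the 2 groups overlapped in every list. The 4 mesenchymal miRNAs ran from 58966 to 87171 CPM in water and from 52221 to 88751 in PZH. The 3 erythroid miRNAs ran from 3012 to 4842 and from 2639 to 4744. The 3 muscle miRNAs ran from 13.4 to 88.5 and from 10.9 to 43.6. No listed miRNA was at 0 in all libraries, and the part of cell mix in the changes of the members was not tested.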

How the data were processed

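Small RNA of 12 mouse livers (6 water, 6 PZH) was extracted with Trizol and made into TruSeq Small RNA libraries, per the labels' protocols. The authors deposited raw counts per mature miRNA, without normalization. cutadapt, FastQC, BWA, DESeq2 and the build GRCm38 are named in the submitters' processing notes, and the counting tool and its treatment of reads shared between sequences are not named there.

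From the deposited counts, rows with a mean of at least 5 counts over the 12 libraries (883) were fitted with edgeR 4.0.16 in R 4.3.3 (TMM, quasi-likelihood, no covariate), with p-values adjusted over all of them. Group means are CPM with SD, and the SE of a log2 fold change is its size over the square root of F. Arm ratios were fitted with limma 3.58.1 on log2 ratios with 1 added, over 210 hairpins. Alternatives included DESeq2 1.42.0, limma-voom, other scalings, filters and depth controls. The fits were also run on simulated counts, and the outcome is not given here. All simulated arm pairs had the same dispersion, so that run does not cover the spread of low-count hairpins. Sequences and hairpin positions came from RefSeq (GRCm38.p6) and introns from GENCODE M21 on the same build, taking for each hairpin the intron with the nearest end.

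The members and lists were chosen with earlier results of these data known. Named are the members called, the 10 highest by CPM, hairpins with both arms among the members, the 3 rows on either side of the threshold and the list of hairpins made without the Microprocessor. Each library is 1 liver sample, and the p-values judge the difference between groups against the spread between these samples.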

Additional observations from a re-analysis of the deposited data

Results flagged for a closer look

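In 4 of 62 groups of 6 values examined, 1 library stood apart from the rest of its group by more than Dixon's critical value for its gap over the range, where chance gives about 1 in 20. miR-7058-3p was at 118 CPM in PZH replicate 2, with 51.7 CPM the next highest in that group. The log2 ratio of 5p to 3p counts was -3.70 for miR-7075 in PZH replicate 5 (next lowest -2.09) and -3.0 for miR-6946 in water replicate 6 (next lowest -0.87). In water replicate 6, 83 members had a count above 0, and the next lowest water library had 108; this is also the shallowest library, with 4961913 counts.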

How the results depend on the processing

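The count of members called higher was 1 under every alternative tried. The count called lower, 3 in the report, was 5 with DESeq2 and 6 with cells at 0 read as 1, and leaving out 1 library at a time gave 2 to 5, with 5 without PZH replicate 1. Over the whole table, leaving out 1 library gave 46 to 64 rows higher and 36 to 58 lower, with 36 without water replicate 1. Hairpins with a called arm ratio, 4 in the report, numbered 12 with 5 added to each count, 11 with both arms at a mean of 20 and 3 to 13 with 1 library left out, with 13 without water replicate 2 and 7 without PZH replicate 2. The miR-7056 ratio was called in all 14 fits that included it, with changes from 3.20 to 4.70 and adjusted p from 2.35e-05 to 0.00753. Adjusted p ranged from 2.42e-21 to 0.000586 for miR-7056-3p, from 1.31e-06 to 0.0116 for miR-6952-3p, from 1.89e-06 to 0.00680 for miR-7009-5p and from 0.00190 to 0.133 for miR-7021-3p, which the default filter and the mean of 20 counts left untested. miR-877-5p passed with libraries thinned (adjusted p = 0.0454) and miR-484 without PZH replicate 2 (0.0335). The summed member level differed by -27.7 CPM (PZH minus water), and by -84.1 to 10.1 CPM with 1 library left out. Its correlation with depth, -0.270 over all libraries, was -0.915 in the PZH libraries. The cause was not tested in any of these. The rule on 0.5 CPM and the fit without the 2 deepest libraries were chosen after seeing the data. No label says that replicate numbers pair the mice, and they were not treated as pairs. Deviations of same-numbered libraries correlated at -0.14 to 0.06, and 0 of 6 correlated best with their own number. Such correlations cannot settle whether mice shared a cage, litter or handling. With a replicate block 53 rows were called higher and 46 lower, 1 and 3 of them members, and 2 hairpins had a called arm ratio. Depth limits the 74 members of 5 to 10 mean counts, whose fold changes had a median SE of 0.67.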
